A study of Mus musculus with 6 samples.

Results

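The RNA levels of 10 genes of the oxidative and metal stress response were followed in mouse muscle stem cells (MuSCs). They were chosen by symbol from the 22706 genes of the deposited table, with no threshold on their values. They comprise the regulator Nfe2l2 (NRF2) and its inhibitor Keap1, 6 genes that textbooks list as NRF2 targets (Gclc, Gclm, Txnrd1, Srxn1, Hmox1 and Nqo1) and the metallothionein genes Mt1 and Mt2. All 10 had a row in the table and passed the filter on low values.

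MuSCs were sorted straight from muscle, and each of 3 genotypes gave 2 RNA-seq libraries, 6 in all. The control group was wild type, the mdx group carried the dystrophin mutation that models Duchenne muscular dystrophy, and the Sirt6mKO/mdx group carried that mutation together with a deletion of Sirt6. All samples are labelled C57BL/6, and the labels give no age or sex. By the methods of the study, loxP sites flank exons 4 to 6 of Sirt6, and the Cre (Pax7-ICN) is always active and driven by Pax7, so that recombination covers the skeletal muscle lineage and not stem cells alone. The methods also give littermates as controls, a C57BL/10ScSn origin of the mdx allele, and males for experiments on these genotypes. Cells came from limb and trunk muscle after enzymatic digestion, with depletion of cells that carried Sca1, CD45 or CD31 and a sort for Integrin-a7 and CD34 or for a reporter.

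NRF2 is a transcription factor that KEAP1 holds in the cytoplasm and hands to a CUL3 ubiquitin ligase for degradation. Electrophiles and oxidants modify KEAP1, NRF2 then escapes degradation, and with a small MAF partner it binds antioxidant response elements of genes for glutathione synthesis, thioredoxin reduction and haem breakdown. Much of this control acts on the protein, so an RNA level of Nfe2l2 does not report NRF2 activity. Metallothioneins are small cysteine-rich proteins that bind zinc and copper, and their genes respond to the zinc-sensing factor MTF1 through metal response elements, to glucocorticoids and to stress. In muscle, both systems are known as buffers against reactive oxygen, and muscle without dystrophin is known for a raised oxidant load.

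The promoter windows of 4 of these genes are shown because these genes were called in mdx and differ in the elements their windows carry. RefSeq windows were given for 8 of the 10 genes. Each is printed 5′ to 3′ along the gene, from 250 bases before the annotated start to 30 bases after it. Capitals mark matches, on either strand, to the core of the antioxidant response element (TGACNNNGC), to the core of the metal response element (TGCACNC or TGCGCNC) and to the AP-1 site (TGANTCA). The windows are GRCm38.p6 chr8:94172368-94172647 (Mt2), chr8:94178839-94179118 (Mt1), chr2:152105274-152105553 (Srxn1) and chr10:82858956-82859235 (Txnrd1), all on the plus strand.
Mt2: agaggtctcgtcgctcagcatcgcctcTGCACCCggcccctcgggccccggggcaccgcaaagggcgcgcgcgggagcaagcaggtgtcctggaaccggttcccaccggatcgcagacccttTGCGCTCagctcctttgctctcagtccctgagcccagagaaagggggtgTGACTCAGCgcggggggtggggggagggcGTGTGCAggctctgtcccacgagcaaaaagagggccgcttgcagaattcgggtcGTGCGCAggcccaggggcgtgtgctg
Mt1: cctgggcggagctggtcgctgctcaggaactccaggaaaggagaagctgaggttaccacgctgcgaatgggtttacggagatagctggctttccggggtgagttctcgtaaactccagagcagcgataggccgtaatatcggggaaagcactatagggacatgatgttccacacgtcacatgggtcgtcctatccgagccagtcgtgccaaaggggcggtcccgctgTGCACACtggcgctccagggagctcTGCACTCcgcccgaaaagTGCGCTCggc
Srxn1: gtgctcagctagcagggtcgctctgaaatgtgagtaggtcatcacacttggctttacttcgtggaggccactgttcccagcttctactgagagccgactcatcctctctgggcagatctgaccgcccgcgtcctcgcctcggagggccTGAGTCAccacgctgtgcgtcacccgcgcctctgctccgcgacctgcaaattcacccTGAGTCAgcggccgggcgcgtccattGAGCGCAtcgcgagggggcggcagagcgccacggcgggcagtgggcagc
Txnrd1: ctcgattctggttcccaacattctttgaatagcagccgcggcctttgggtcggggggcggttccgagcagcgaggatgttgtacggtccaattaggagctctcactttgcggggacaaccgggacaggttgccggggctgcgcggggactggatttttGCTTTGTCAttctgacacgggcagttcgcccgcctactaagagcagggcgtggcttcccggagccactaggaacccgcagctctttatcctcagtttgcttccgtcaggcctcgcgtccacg

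The Mt2 window held 4 matches to the metal response element core, starting at -223, -128, -50 and +5, and the Mt1 window held 3, starting at -23, +3 and +21. Positions count from the annotated start of each window. Bases further into the gene, and the surroundings of any later start of Mt1, were not searched. Over 32851 windows of the same length, 24.1% held at least 1 such match and 1.73% held 3 or more. An antioxidant response element core lay at -79 to -71 in the Mt2 window, and its first 7 bases are also an AP-1 site. One such core lay at -92 to -84, on the minus strand, in the Txnrd1 window printed here, and none in the other 2 windows given for Txnrd1. The windows of Gclm and Nfe2l2 also held 1 core each, and those of Mt1, Srxn1, Nqo1 and Keap1 held none, against a share of 11.5% over all windows. The Srxn1 window held 1 metal response element core, at -19 to -13, and 2 AP-1 sites, starting at -102 and -45, a motif present in 7.46% of all windows. With the 2 bases after it, the AP-1 site at -45 reads TGAGTCAGC. It differs from the antioxidant response element core searched here only in a G for the C. A core that allows either base was not searched, so the absence of matches holds for TGACNNNGC alone. These are matches of letters, and no binding was measured.

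Values are the authors' normalized read counts (reads divided by a size factor per library and rounded), so they can be compared between libraries for 1 gene. Between genes, levels were compared per kilobase of exon. The approximate depth was 4397632 to 9738836 reads per library, and 18983 to 20614 genes were above 0. A gene was called when limma gave a Benjamini-Hochberg adjusted p of at most 0.05 over 15915 genes and a log2 fold change of at least 1 in size. With 2 libraries against 2, an exact permutation test of a single gene cannot go below a p of 0.333, so all tests are those of limma, and the p-values cover only the spread between these libraries.

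Several facts about the libraries bear on every comparison. The gene-level value of Sirt6 was 41 and 32 (control), 33 and 40 (mdx) and 37 and 30 (Sirt6mKO/mdx), and the deleted exons were not measured separately. The last group is therefore called the Sirt6mKO/mdx-labelled libraries, and each direction given for it rests on that label. Xist, the RNA of the silenced X chromosome, was at 16772 and 12950 in control and between 7 and 34 in the other 4 libraries, whereas the Y-linked Ddx3y was at 3 and 8 in control and between 1024 and 1767 elsewhere. In these genes control had the pattern of female cells and the other 4 libraries that of male cells, whereas the methods give males. Control thus differed from both other groups in these sex-linked genes as well as in genotype, and the 2 differences cannot be told apart. All 10 MuSC markers were above 0 in every library, with sums of 24210 to 32470, and 1 of them, Sdc4, was called lower in mdx than in control, higher in the Sirt6mKO/mdx-labelled libraries than in mdx and lower there than in control. Of 7 myofibre markers, 3 were called lower in mdx than in control and 3 higher in the Sirt6mKO/mdx-labelled libraries than in mdx. They summed to 5982 and 6816 (control), 4447 and 1341 (mdx) and 9305 and 4032 (Sirt6mKO/mdx), and the part of myofibre RNA in the results was not tested. The 6 endothelial markers summed to 908 and 759 (control), 412 and 406 (mdx) and 610 and 635 (Sirt6mKO/mdx), and Pecam1 and Kdr were called lower in mdx. Of 7 fibro-adipogenic markers, Col1a1 and Ly6a were called higher in mdx, and Col1a1 and Col15a1 lower in the Sirt6mKO/mdx-labelled libraries than in mdx, Col15a1 also lower there than in control. Of the smooth muscle markers Acta2 was called higher in mdx, of the erythroid markers Hbb-bs was called higher in the Sirt6mKO/mdx-labelled libraries than in mdx, and the part of these cells was not tested either. Scaling the libraries to equal totals moved the median log2 fold change of all genes to -0.59 in both comparisons of the Sirt6mKO/mdx-labelled libraries, so values quoted at equal totals for these comparisons hold that shift. In the 2 Sirt6mKO/mdx-labelled libraries the 10 most abundant genes held 32.6% and 30.04% of the summed values, against 11.8% to 22.9% in the other 4, with 11.8% in control replicate 2.

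A list of 15 immediate early and dissociation response genes (Fos, Jun, Egr1, Atf3, Hspa1a and others) moved with the groups. It summed to 143942 and 155247 (control), 21490 and 23723 (mdx) and 116794 and 104838 (Sirt6mKO/mdx). All 15 genes were called lower in mdx than in control, and all 15 higher in the Sirt6mKO/mdx-labelled libraries than in mdx. Against control, 2 of the 15 were called lower in the Sirt6mKO/mdx-labelled libraries and none higher. The part of this response in the results below was not tested.

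In mdx MuSCs, 6 of the 10 genes fell against control and none rose: both metallothioneins, Txnrd1, Hmox1, Gclc and Srxn1. Among all genes tested, 7.34% were called lower and 6.89% higher in this comparison. Between mdx and the Sirt6mKO/mdx-labelled libraries, only Mt1 and Mt2 were called among the 10 genes, both higher (2 of 10, against 5.62% of all genes), and none was called lower (2.54% of all genes). Against control, 1 of the 10 genes was called lower in the Sirt6mKO/mdx-labelled libraries, namely Txnrd1 (2.68% of all genes), and none was called higher (5.19%). The median log2 fold change of the 10 genes was -1.15, 0.62 and -0.40 in these 3 comparisons, beside 0.00, 0.02 and 0.01 over all genes tested. The comparisons share libraries in pairs, so their values stand side by side and are not independent of each other. In bulk RNA, fewer cells of a type and less RNA per cell cannot be told apart.

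These calls also rest on how limma shares the variance between genes. With 1 prior variance for all genes, Txnrd1 in mdx alone was still called among the 10, and the limma adjusted p of Mt1 became 0.0794 in mdx against control and 0.101 in the Sirt6mKO/mdx-labelled libraries against mdx. Without a minimum mean, Txnrd1 and Mt1 in mdx and Mt1 against mdx were still called. A robust prior variance ended both calls of Mt2 (adjusted p 0.130 and 0.0837) and no other call of the 10.

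**Figure D1:**
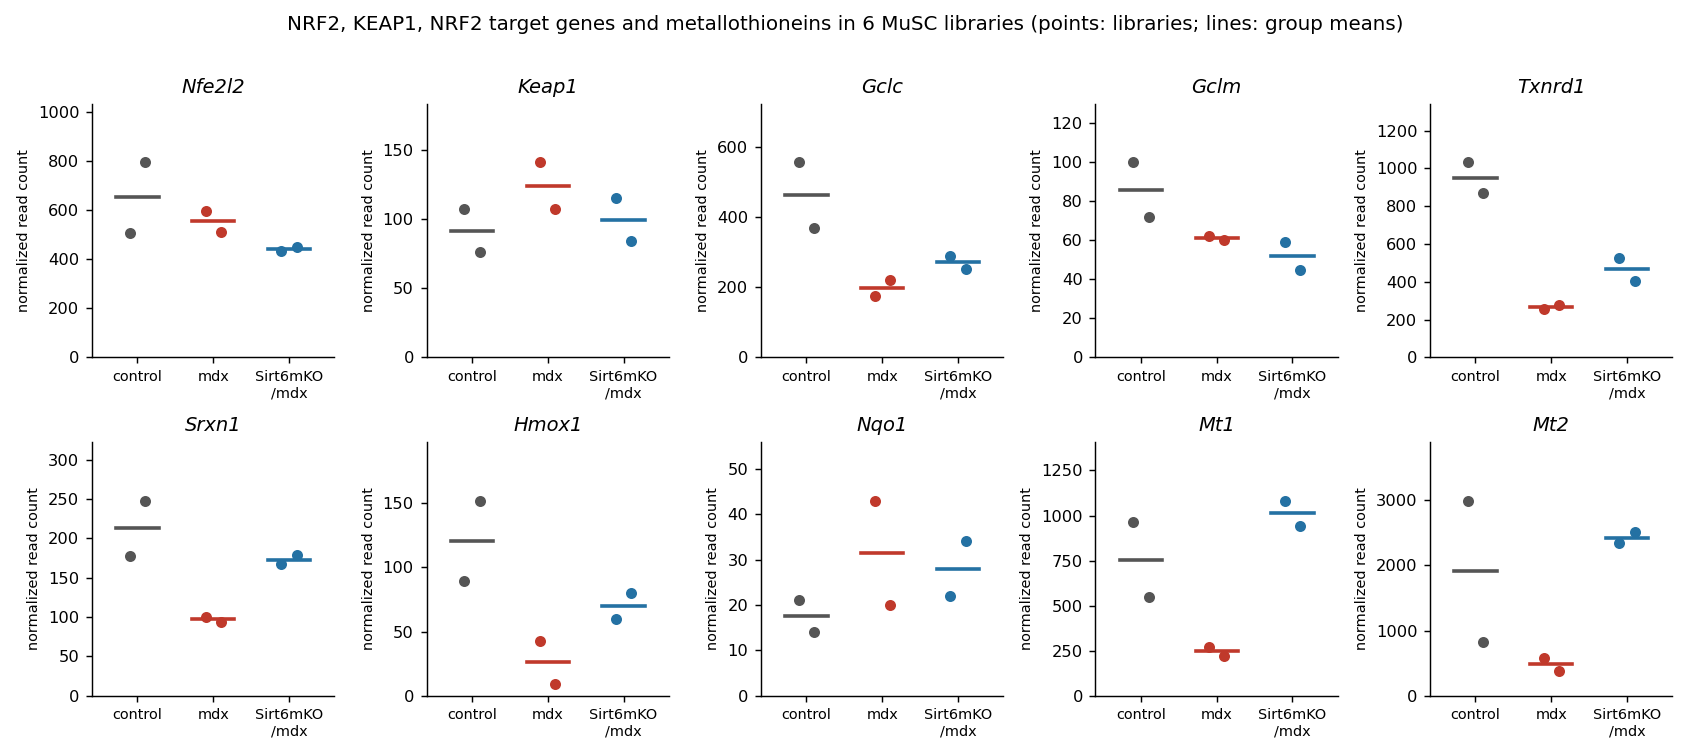
Normalized read count (y axis, linear from 0) of each of the 10 genes in the 6 libraries, by group. Points are libraries and lines are group means of 2. The mdx points of Mt1, Mt2, Txnrd1, Srxn1, Gclc and Hmox1 lie below both control points and below both points of the Sirt6mKO/mdx-labelled libraries.

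The regulator and its inhibitor came first. Nfe2l2 (ENSMUSG00000015839; GRCm38 chromosome 2, 75675513 to 75704641), which encodes NRF2, was at 508 and 795 (control), 598 and 509 (mdx) and 435 and 449 (Sirt6mKO/mdx), replicate 1 first here and throughout. The mdx libraries lay within the range of the control pair, and the Sirt6mKO/mdx-labelled pair lay below the other 4 libraries. The log2 fold change was -0.20 in mdx against control (SE 0.26, 95% interval -0.77 to 0.36, limma adjusted p 0.643) and turned to 0.12 without control replicate 2. It was -0.32 between the Sirt6mKO/mdx-labelled libraries and mdx, with an interval of -0.88 to 0.24, and -0.52 against control, with an interval of -1.09 to 0.04. The last value ran from -0.85 without control replicate 1 to -0.20 without control replicate 2, and at equal totals it was -1.13 and called (limma adjusted p 0.0181), which is -0.54 relative to the shift of all genes. As deposited, no call was made in any comparison.

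Keap1 (ENSMUSG00000003308; chromosome 9, 21229730 to 21239332), the cytoplasmic inhibitor of NRF2, was at 107 and 76 (control), 141 and 107 (mdx) and 115 and 84 (Sirt6mKO/mdx). The 3 groups overlapped or touched, and none of the differences passed the test. The log2 fold change was 0.44 in mdx against control (interval -0.31 to 1.19) and -0.32 in the Sirt6mKO/mdx-labelled libraries against mdx (interval -1.07 to 0.43). Between those libraries and control it was 0.12 (interval -0.63 to 0.88), and -0.48 at equal totals, which is 0.11 relative to the shift of all genes. Its exons share 510 bases with the antisense gene Gm16754, which was at 1 to 11, and the use of strand in the counting is not stated.

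The glutathione branch was represented by the 2 subunits of glutamate-cysteine ligase, the first and limiting enzyme of glutathione synthesis. Gclc (ENSMUSG00000032350; chromosome 9, 77754535 to 77794485), the catalytic subunit, was at 557 and 369 (control), 174 and 222 (mdx) and 289 and 253 (Sirt6mKO/mdx). The groups did not overlap, with mdx lowest and control highest. Gclc was 2.30-fold lower in mdx than in control (log2 fold change -1.20, SE 0.28, limma adjusted p 0.00884). The call was lost without control replicate 1 (-0.91, adjusted p 0.0914) and without mdx replicate 1 (-1.03, adjusted p 0.119).

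Between the Sirt6mKO/mdx-labelled libraries and mdx the log2 fold change of Gclc was 0.46 (interval -0.14 to 1.05), and -0.17 when the libraries were scaled to equal totals, which is 0.43 relative to the shift of all genes. Against control it was -0.74 (interval -1.34 to -0.15, adjusted p 0.115), and at equal totals -1.35 and called, which is -0.76 relative to that shift. Gclm (ENSMUSG00000028124; chromosome 3, 122245557 to 122269984), the modifier subunit, was at 100 and 72 (control), 62 and 60 (mdx) and 59 and 45 (Sirt6mKO/mdx). Both mdx groups lay below the control pair, but no difference passed the test, with log2 fold changes of -0.47 (interval -1.33 to 0.39) and -0.71 (interval -1.57 to 0.15) against control, and of -0.24 between the Sirt6mKO/mdx-labelled libraries and mdx. At equal totals the second value was -1.30 and called, which is -0.72 relative to the shift of all genes. Gclm shares exonic bases with 2 other gene models, Gm17494 on the other strand (296 bases, values of 1 to 23) and the pseudogene Gm6061 (244 bases), so part of its value is uncertain.

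The thioredoxin branch was represented by a reductase and by sulfiredoxin. Txnrd1 (ENSMUSG00000020250; chromosome 10, 82859206 to 82897724), the cytosolic thioredoxin reductase, was at 1033 and 868 (control), 255 and 279 (mdx) and 525 and 406 (Sirt6mKO/mdx). The 3 groups were fully apart, in the order control, libraries labelled Sirt6mKO/mdx, mdx. Txnrd1 was 3.54-fold lower in mdx than in control (log2 fold change -1.82, SE 0.25, limma adjusted p 0.000167), and the value ran from -1.95 to -1.70 when each library was left out in turn. Among the 6 genes called lower in mdx, Txnrd1 was the 1 whose call was made under every alternative tried.

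In the Sirt6mKO/mdx-labelled libraries, Txnrd1 was 2.05-fold lower than in control (log2 fold change -1.03, SE 0.25, limma adjusted p 0.0182), which makes it the 1 gene of the 10 called against control. That call was lost without control replicate 1 (-0.91), without Sirt6mKO/mdx replicate 1 (-1.22) and without Sirt6mKO/mdx replicate 2 (-0.85). The log2 fold change against mdx was 0.79 (interval 0.26 to 1.32, adjusted p 0.0598) and was not called. At equal totals it was 0.16, which is 0.755 relative to the shift of all genes.

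Srxn1 (ENSMUSG00000032802; chromosome 2, 152105516 to 152111376), sulfiredoxin, which restores overoxidized peroxiredoxins, was at 178 and 248 (control), 100 and 94 (mdx) and 167 and 179 (Sirt6mKO/mdx). The mdx pair was below the other 4 libraries, while the control pair and the Sirt6mKO/mdx-labelled pair overlapped. Srxn1 was 2.16-fold lower in mdx than in control (log2 fold change -1.11, SE 0.30, limma adjusted p 0.0203). Without control replicate 2 the value was -0.87, and without mdx replicate 1 or mdx replicate 2 it was -1.15 and -1.06, each time without a call. The log2 fold change was 0.83 in the Sirt6mKO/mdx-labelled libraries against mdx (interval 0.19 to 1.47, adjusted p 0.0979) and -0.28 against control (interval -0.92 to 0.36). At equal totals these 2 values were 0.21 and -0.88, which are 0.80 and -0.29 relative to the shift of all genes.

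Hmox1 (ENSMUSG00000005413; chromosome 8, 75093591 to 75100596), the inducible haem oxygenase that releases iron from haem, was at 89 and 152 (control), 43 and 9 (mdx) and 60 and 80 (Sirt6mKO/mdx). The mdx values rest on about 66 and 12 reads, and both lay below every other library. Hmox1 was 5.59-fold lower in mdx than in control (log2 fold change -2.48, SE 0.59, limma adjusted p 0.00999), which in size was the largest fall of the 10 and had the widest error of the 6 called. Without mdx replicate 2 the value was -1.42 and without control replicate 2 it was -2.10, neither of them called, and without mdx replicate 1 it was -3.55.

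Against mdx, Hmox1 in the Sirt6mKO/mdx-labelled libraries had a log2 fold change of 1.74 (interval 0.49 to 3.0, adjusted p 0.0779). Without mdx replicate 1 this was 2.81 and called, and without mdx replicate 2 it was 0.68. Against control it was -0.74 (interval -1.99 to 0.52). Hmox1 is abundant in macrophages. Of 12 macrophage and leukocyte markers, 11 were in the table, with 0 to 4 of them at 0 per library, and they summed to 194 and 199 (control), 188 and 149 (mdx) and 289 and 261 (Sirt6mKO/mdx). The members moved in different directions, as Cd163 and Lyz2 were called higher in mdx than in control and Cd68 lower. Cd68 was at 86 and 88 (control), 30 and 26 (mdx) and 107 and 56 (Sirt6mKO/mdx), whereas Cd163 was at 2 and 5 (control), 48 and 30 (mdx) and 22 and 24 (Sirt6mKO/mdx). The pan-leukocyte marker Ptprc was at 0 and 0 (control), 5 and 3 (mdx) and 3 and 19 (Sirt6mKO/mdx). Against control, Cd163 and Lyz2 were also called higher in the Sirt6mKO/mdx-labelled libraries, and none of the markers was called between these and mdx. The part of these cells in Hmox1 was not tested.

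Nqo1 (ENSMUSG00000003849; chromosome 8, 107388225 to 107403206), a quinone reductase often used as a marker of NRF2 activity, was at 21 and 14 (control), 43 and 20 (mdx) and 22 and 34 (Sirt6mKO/mdx). These values rest on 14 to 66 reads, and the mdx pair overlapped both other groups. The log2 fold change in mdx against control was 0.74, with an interval of -0.59 to 2.07, so neither a fall nor a rise was detectable at this depth. Against mdx it was -0.10 (interval -1.43 to 1.23), and it turned to 0.43 without mdx replicate 1, while against control it was 0.64 (interval -0.69 to 1.97).

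The metallothioneins were the 2 genes of the 10 that were called in both the first and the second comparison. Mt1 (ENSMUSG00000031765; chromosome 8, 94179089 to 94180325) was at 964 and 547 (control), 269 and 222 (mdx) and 1083 and 942 (Sirt6mKO/mdx). Both mdx libraries were far below the other 4, and the control pair and the Sirt6mKO/mdx-labelled pair overlapped. Mt1 was 2.96-fold lower in mdx than in control (log2 fold change -1.57, SE 0.28, limma adjusted p 0.00166) and ran from -1.98 to -1.16 when libraries were left out in turn, called each time.

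In the Sirt6mKO/mdx-labelled libraries, Mt1 was 4.12-fold higher than in mdx (log2 fold change 2.04, SE 0.28, limma adjusted p 0.000402), and the log2 value ran from 1.90 to 2.18, called each time, with each library left out. Against control the log2 fold change was 0.48 (interval -0.13 to 1.08, adjusted p 0.327), and -0.13 when the libraries were scaled to equal totals, which is 0.46 relative to the shift of all genes. The difference from control did not pass the test, and the interval allows a rise of Mt1 up to its upper bound.

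Mt2 (ENSMUSG00000031762; chromosome 8, 94172618 to 94173567), which lies beside Mt1, was at 2992 and 827 (control), 585 and 375 (mdx) and 2340 and 2510 (Sirt6mKO/mdx). The mdx libraries were again the lowest 2, but the control pair differed 3.62-fold between its own replicates. Mt2 was 3.35-fold lower in mdx than in control (log2 fold change -1.75, SE 0.43, limma adjusted p 0.0123). Without control replicate 1 the value was -0.82 and without control replicate 2 it was -2.67, and the call was lost in 4 of the 6 settings that leave out a library.

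Mt2 in the Sirt6mKO/mdx-labelled libraries was 5.17-fold higher than in mdx (log2 fold change 2.37, SE 0.43, limma adjusted p 0.00349). The value ran from 2.05 to 2.69 when libraries were left out, and the call was lost without mdx replicate 2 and without either library labelled Sirt6mKO/mdx. Against control the log2 fold change was 0.62 (interval -0.29 to 1.54), with 1.55 and a call (limma adjusted p 0.0132) without control replicate 1 and -0.30 without control replicate 2. Of 588 exonic bases of Mt2, 432 are shared with the antisense gene model Gm45774, so reads from the 2 strands could not be told apart if the counting ignored strand.

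**Figure D2:**
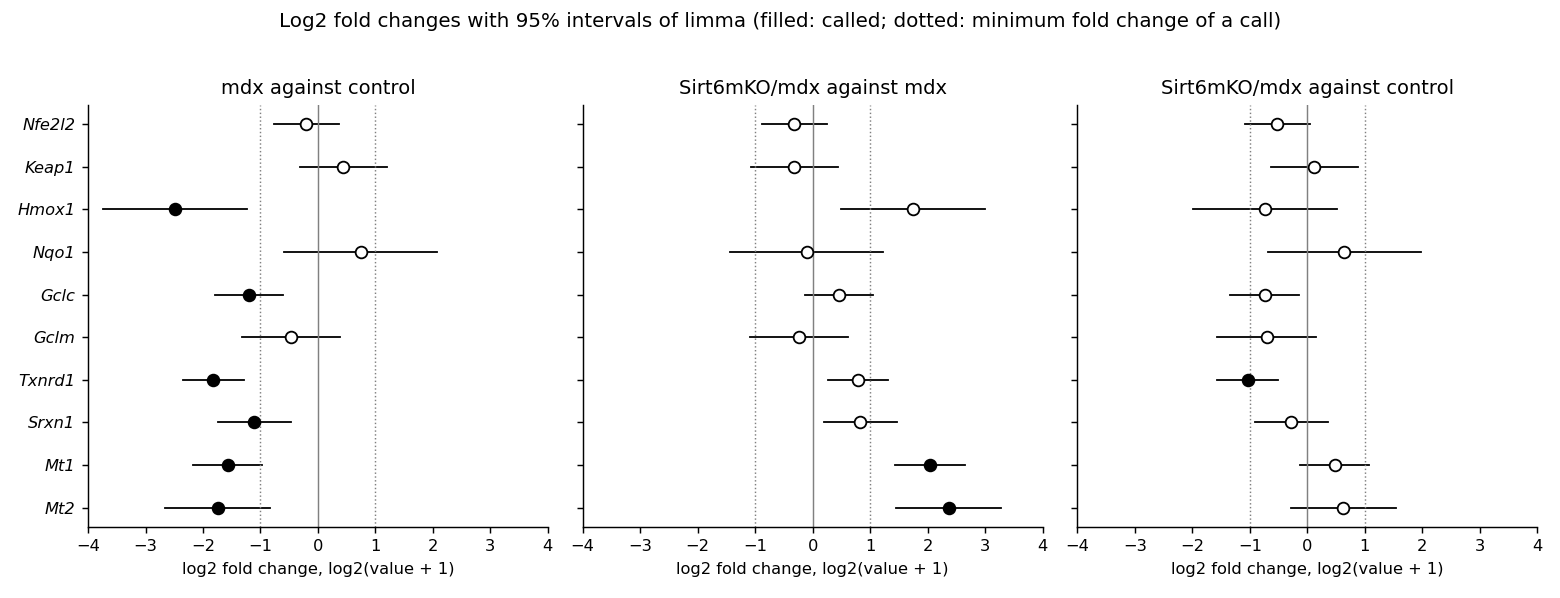
Log2 fold change on the log2(value + 1) scale (x axis) of the 10 genes in the 3 comparisons, with 95% intervals of limma. Filled points were called and dotted lines mark a log2 fold change of 1 in size. Filled points number 6 for mdx against control, all left of 0, 2 for the Sirt6mKO/mdx-labelled libraries against mdx (Mt1 and Mt2, right of 0), and 1 for those libraries against control (Txnrd1, left of 0).

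Per kilobase of exon, Mt2 was the most abundant of the 10 genes in every group, with a mean of 3247 in control, 816 in mdx and 4124 in the Sirt6mKO/mdx-labelled libraries. Mt1 followed with 606, 197 and 813, which understate its level because an annotated transcript that retains the introns makes its gene model 1 block. Nfe2l2 came next at 172, 146 and 116. In control it was followed by Txnrd1 at 134, Gclc at 123, Srxn1 at 75.5, Hmox1 at 68.8, Keap1 at 19.5, Gclm at 13.7 and Nqo1 at 11.3. The exon length used for Txnrd1 comes from a gene model that starts at 82833951, before the deposited start. Its level may be understated, and its place below Nfe2l2 is uncertain. In mdx, Hmox1 at 14.8 stood below Keap1 at 26.4 and Nqo1 at 20.3, with Gclm lowest at 9.70. Within each group the values of neighbours in this order, such as Txnrd1 and Gclc or Keap1 and Gclm, rest on 2 libraries each and were not tested against each other.

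Mt1 and Mt2 varied together over the 6 libraries. The value of Mt2 divided by that of Mt1 was 3.10 and 1.51 (control), 2.17 and 1.69 (mdx) and 2.16 and 2.66 (Sirt6mKO/mdx), so the range within control covered the other 4. On centred log2 values, the root mean square difference between the pair was 0.36. Among 9664 genes with a mean of at least 50, the profile nearest to the mean of Mt1 and Mt2 was that of Arrdc2, an arrestin-domain gene, with a root mean square difference of 0.15. It was followed by the antisense gene BC042782 at 0.16, Zc3h12a (the RNase regnase-1) at 0.17, Nabp1 at 0.20 and Id1, an inhibitor of basic helix-loop-helix factors, at 0.21. Arrdc2 was at 397 and 138 (control), 69 and 60 (mdx) and 291 and 354 (Sirt6mKO/mdx). As in Mt2, its value in control replicate 1 was well above that in control replicate 2. These rankings describe 6 libraries of unequal depth, in 3 groups, and carry no test.

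The genes around NRF2 and metallothioneins were read from 7 lists with 129 symbols, of which 120 were tested. In mdx against control 11 were called higher and 14 lower, in the Sirt6mKO/mdx-labelled libraries against mdx 8 higher and 4 lower, and in those libraries against control 7 higher and 5 lower. As a share of the genes tested these are to be read against the 6.89% and 7.34%, 5.62% and 2.54%, and 5.19% and 2.68% of all genes given above. Rises and falls of list genes are given on the log2(value + 1) scale.

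The first list held 12 control partners of NRF2. In mdx, 6 of the 12 fell and none rose, with a median log2 fold change of -0.98. Those that fell were Maff, Mafk and Mafg, the small MAF proteins that pair with NRF2 on DNA, Bach1, which competes with it there, the related factor Nfe2l3, and Sqstm1. Maff was at 1799 and 1961 (control), 109 and 98 (mdx) and 1153 and 1156 (Sirt6mKO/mdx). Mafk was at 2230 and 2293 (control), 215 and 239 (mdx) and 1670 and 1353 (Sirt6mKO/mdx). In both genes the mdx libraries lay far below the other 4.

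Maff fell by 4.17 in mdx on the log2 scale (SE 0.23, limma adjusted p 4.15e-08) and Mafk fell by 3.31 (SE 0.24, adjusted p 5.75e-07). In the Sirt6mKO/mdx-labelled libraries against mdx, Maff rose by 3.47 and Mafk by 2.72, and both calls were made with each library left out. Mafg had a log2 fold change of -1.37 and Bach1 of -1.22 in mdx, with values of 402 and 281 in control against 108 and 155 in mdx for Mafg, and 589 and 744 against 269 and 299 for Bach1. Nfe2l3 was at 492 and 262 (control), 83 and 121 (mdx) and 173 and 138 (Sirt6mKO/mdx). It was called lower in both of the latter groups than in control (-1.83 and -1.21), and the second call was lost in 5 of the 6 settings that leave out a library.

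Sqstm1, the autophagy receptor p62 that can bind KEAP1, was at 3837 and 2916 (control), 1317 and 1064 (mdx) and 2447 and 2882 (Sirt6mKO/mdx). It fell by 1.50 in mdx (SE 0.28, limma adjusted p 0.002) and rose by 1.17 against mdx in the Sirt6mKO/mdx-labelled libraries (adjusted p 0.0178). With equal totals the second value was 0.54 and not called. The ubiquitin ligase subunit Cul3 and the related factor Nfe2l1 were not called in any comparison.

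**Figure D3:**
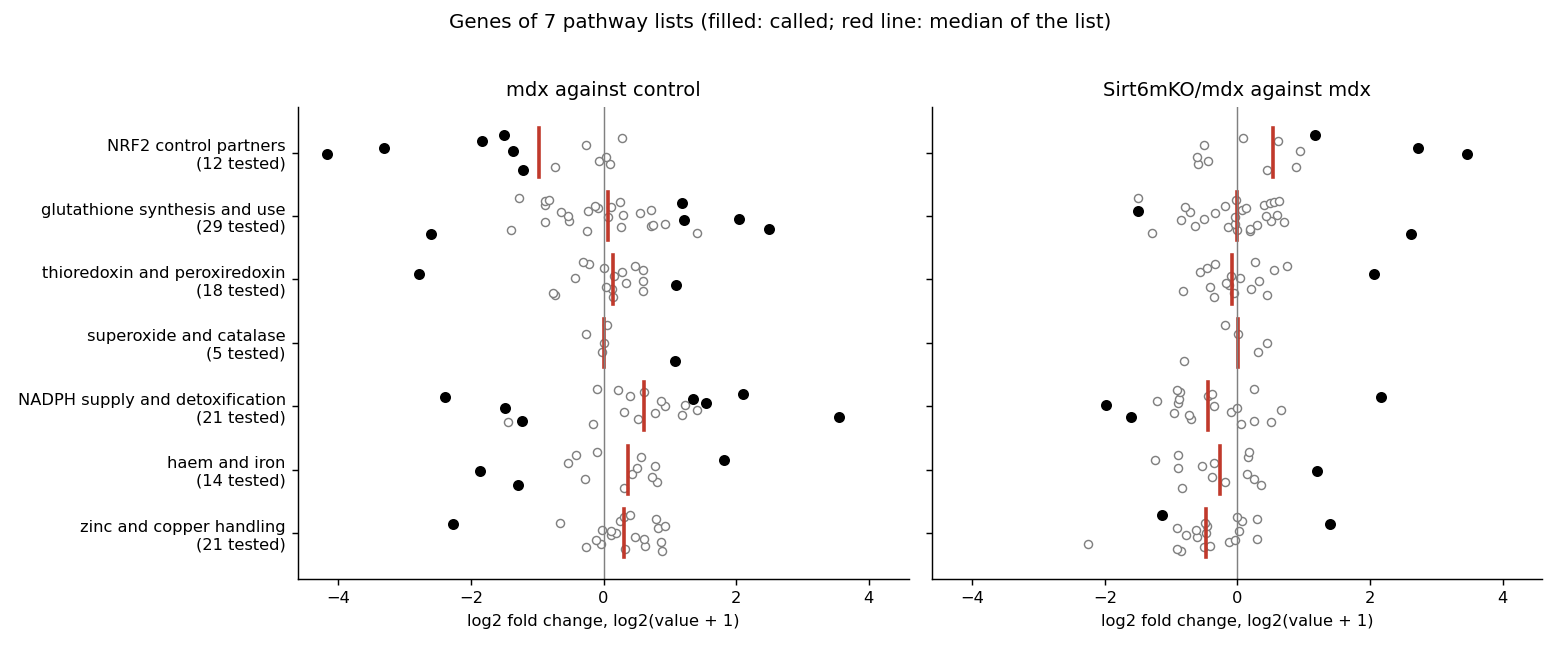
Log2 fold change on the log2(value + 1) scale (x axis) of each tested gene of the 7 lists (rows) in mdx against control and in the Sirt6mKO/mdx-labelled libraries against mdx. Filled points were called, open points were not, and red lines are list medians. The median of the NRF2 control partners is -0.98 on the left and 0.53 on the right (-0.09 on the right when libraries are scaled to equal totals, 0.50 relative to the shift of all genes), while that of the glutathione list is 0.07 and 0.00.

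The glutathione list held 34 further genes of glutathione synthesis and use. Of 29 tested, 4 rose and 1 fell in mdx, with a median log2 fold change of 0.07. Gpx8, a peroxidase of the endoplasmic reticulum, was at 134 and 130 (control), 594 and 501 (mdx) and 323 and 458 (Sirt6mKO/mdx), a rise of 2.04 in mdx (SE 0.27, limma adjusted p 0.000116). Glrx, a glutaredoxin, was at 8 and 2 in control and at 26 to 41 in the other 4 libraries, with a log2 fold change of 2.50 in mdx whose call was lost in 5 of the 6 settings that leave out a library.

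Mgst1, a microsomal glutathione transferase, had a log2 fold change of 1.18 in mdx and 1.68 in the Sirt6mKO/mdx-labelled libraries against control. The gene that fell was Chac1, which breaks glutathione down and is a target of the integrated stress response. It was at 54 and 63 (control), 5 and 15 (mdx) and 48 and 73 (Sirt6mKO/mdx). Its log2 fold change was -2.60 in mdx against control and 2.62 in the Sirt6mKO/mdx-labelled libraries against mdx. In the Sirt6mKO/mdx-labelled libraries 1 gene of the list rose and 1 fell against mdx, and 3 rose and 2 fell against control. Gstm2, a cytosolic glutathione transferase, was at 119 and 172 (control), 143 and 104 (mdx) and 42 and 43 (Sirt6mKO/mdx), and fell by 1.50 against mdx and by 1.73 against control. The cystine transporter gene Slc7a11 was at 13 or below in every library.

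Of 18 thioredoxin and peroxiredoxin genes, 1 rose and 1 fell in mdx, with a median of 0.14. Prdx3, the mitochondrial peroxiredoxin, was at 137 and 167 (control), 368 and 288 (mdx) and 257 and 346 (Sirt6mKO/mdx), a log2 fold change of 1.10 in mdx. Sesn2, a stress-induced sestrin, was at 133 and 90 (control), 14 and 16 (mdx) and 59 and 73 (Sirt6mKO/mdx). It fell by 2.79 in mdx and rose by 2.06 in the Sirt6mKO/mdx-labelled libraries against mdx, and was the 1 gene of the list called there. Against control 1 gene was called higher, the thioredoxin gene Txn1, with a log2 fold change of 1.15 and of 0.54 without a call at equal totals.

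Of the 5 superoxide and catalase genes 1 was called in mdx and none in the other comparisons. Sod1, the cytosolic enzyme, was at 714 and 556 (control), 715 and 557 (mdx) and 850 and 871 (Sirt6mKO/mdx). The mitochondrial Sod2 ranged from 155 to 238 and the extracellular Sod3 from 197 to 313 over the 6 libraries, and neither was called, nor was Ccs, the copper chaperone of SOD1. Cat, which encodes catalase, was at 178 and 377 (control), 617 and 491 (mdx) and 257 and 383 (Sirt6mKO/mdx). It rose by 1.08 in mdx (SE 0.33, limma adjusted p 0.0368), and by 0.54 without control replicate 1, where the call was lost, as it was in 4 of the other 5 such settings.

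Genes of NADPH supply and detoxification moved both ways, with 4 of 21 higher and 3 lower in mdx and a median of 0.60. Akr1b8, an aldo-keto reductase, was at 12 and 14 (control), 214 and 123 (mdx) and 43 and 65 (Sirt6mKO/mdx). It rose by 3.55 in mdx (SE 0.47, limma adjusted p 0.000136) and fell by 1.60 in the Sirt6mKO/mdx-labelled libraries against mdx (adjusted p 0.0461). Ptgr1, a prostaglandin reductase, rose by 2.10 in mdx, from 51 and 15 to 147 and 103.

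Osgin1, an oxidative stress-induced growth inhibitor, went the other way. It was at 399 and 327 (control), 81 and 57 (mdx) and 378 and 249 (Sirt6mKO/mdx). It fell by 2.39 in mdx (SE 0.31, limma adjusted p 0.000103) and rose by 2.16 in the Sirt6mKO/mdx-labelled libraries (adjusted p 0.000501). Against mdx, 1 gene of the list rose and 2 fell in that group. The second of these was the X-linked G6pdx, which feeds the pentose phosphate pathway, with 33 and 71 (control), 94 and 140 (mdx) and 23 and 35 (Sirt6mKO/mdx). G6pdx fell by 1.98 against mdx. Against control, 3 genes of the list were higher and 1 was lower, with Cbr3, a carbonyl reductase, at 14 and 12 in control and 59 and 56 in the Sirt6mKO/mdx-labelled libraries, a difference of 2.07 that was not called at equal totals.

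Among 15 haem and iron genes, 14 were tested, and 1 rose and 2 fell in mdx, with a median of 0.38. Ftl1, the ferritin light chain and a known NRF2 target, was at 674 and 444 (control), 182 and 124 (mdx) and 384 and 311 (Sirt6mKO/mdx), a fall of 1.86 (SE 0.29, limma adjusted p 0.000553). The heavy chain Fth1 was at 2245 and 1752 (control), 2876 and 2502 (mdx) and 2964 and 2997 (Sirt6mKO/mdx), and was not called.

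Slc40a1, the iron exporter ferroportin, rose by 1.82 in mdx, from 77 and 56 to 333 and 166. Alas1, the first enzyme of haem synthesis, was at 275 and 337 in control and 119 and 128 in mdx, a log2 fold change of -1.30. Against mdx only Ftl1 was called in the Sirt6mKO/mdx-labelled libraries (1.20, and 0.57 without a call at equal totals), and none of the 14 was called against control.

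The zinc and copper genes beside the metallothioneins mostly did not pass the test, with 21 of 24 tested and a median of 0.31 in mdx. Mtf1, the zinc-sensing activator of metallothionein genes, was at 159 and 223 (control), 164 and 149 (mdx) and 111 and 108 (Sirt6mKO/mdx). Its log2 fold change was -0.27 in mdx against control and -0.51 in the Sirt6mKO/mdx-labelled libraries against mdx. The zinc exporter gene Slc30a1, itself known as an MTF1 target, was at 107 and 46 (control), 103 and 115 (mdx) and 85 and 78 (Sirt6mKO/mdx). Neither gene was called, and their libraries did not follow the order of Mt1 and Mt2. The brain metallothionein gene Mt3 was at 0 to 11 and was not tested.

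Slc39a14, the zinc and iron importer ZIP14, was the 1 gene of 21 called in mdx. It was at 4311 and 2369 (control), 601 and 726 (mdx) and 1984 and 1541 (Sirt6mKO/mdx). It fell by 2.27 in mdx (SE 0.30, limma adjusted p 0.000138) and rose by 1.4 in the Sirt6mKO/mdx-labelled libraries against mdx (adjusted p 0.0102), where equal totals gave 0.78 without a call. Slc39a9 was called lower in that comparison (-1.13), and Slc39a3 was called lower in the Sirt6mKO/mdx-labelled libraries against control (-1.15), a call lost in all 6 settings that leave out a library.

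Of the 120 genes tested on the lists, 8 were called lower in mdx than in control and higher in the Sirt6mKO/mdx-labelled libraries than in mdx, like Mt1 and Mt2. Among all 15915 genes, 517 (3.25%) were called in both in this order and 136 (0.855%) in the opposite order. The 8 genes were Maff, Mafk, Sqstm1, Chac1, Sesn2, Osgin1, Ftl1 and Slc39a14. One gene, Akr1b8, was called in the opposite order. Both comparisons use the mdx libraries, so a low value in these 2 libraries enters both, and the count is a description. None of the 8 was called between the Sirt6mKO/mdx-labelled libraries and control. When each library was left out in turn, the falls in mdx of 7 of the 8 were called each time and that of Chac1 in 5 of 6 settings. The later rises of Maff, Mafk and Osgin1 were called each time, and those of the other 5 genes were lost in 3 or 4 of the 6 settings.

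Most other calls of list genes also depended on single libraries. In mdx, Gpx8 and Akr1b8 kept their calls in all 6 such settings, Nfe2l3, Slc40a1 and Alas1 in 5, and Prdx3 in 4. The call of Mgst1 in mdx was lost in 4 settings, with 0.71 without mdx replicate 1, and that of Ptgr1 in 3, with 1.25 without control replicate 2. Calls of Gstm2, G6pdx, Akr1b8 and Slc39a9 between the Sirt6mKO/mdx-labelled libraries and mdx were each lost in 4 of 6 settings, and those of Txn1, Cbr3, Glrx and Ptgr1 against control in 5. The calls of Mgst1 and Gstm2 against control were lost in 3 settings.

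**Figure D4:**
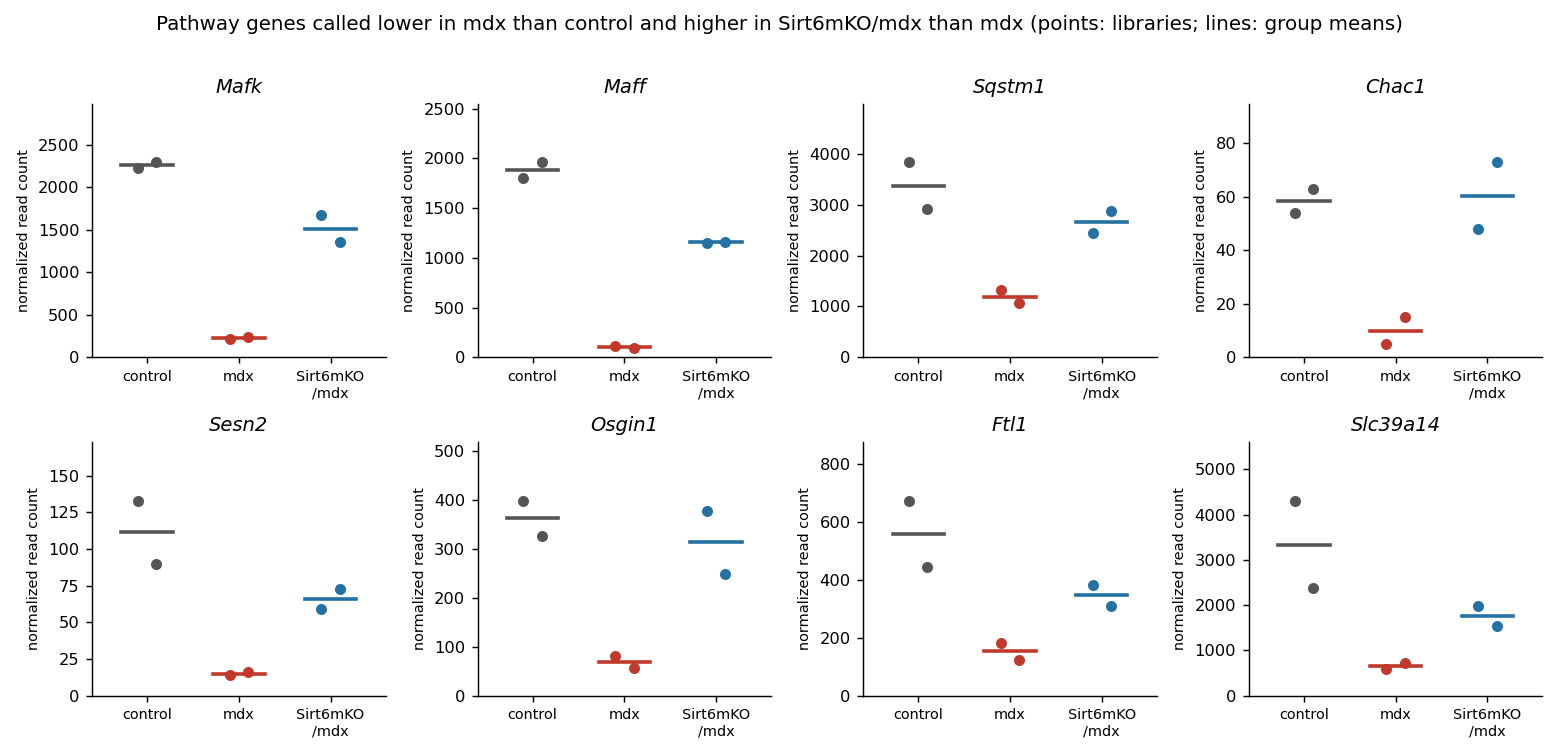
Normalized read count (y axis, linear from 0) of the 8 list genes called lower in mdx than in control and higher in the Sirt6mKO/mdx-labelled libraries than in mdx. Points are libraries and lines are group means of 2. In every panel both mdx points lie below the other 4 points, with Maff at 109 and 98 against 1153 to 1961 elsewhere.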

How the data were processed

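RNA-seq was performed on MuSCs sorted from 6 samples. According to the methods and labels, total RNA was depleted of ribosomal RNA, made into libraries with an Ion Total RNA-Seq kit and sequenced on an Ion Torrent instrument. Reads were trimmed with Reaper, aligned to GRCm38 with STAR (2.4.2a in the submitters' processing notes) and counted per Ensembl gene with featureCounts 1.4.5-p1. Reads on several genes or places were left out, which lowers the values of overlapping genes, and the use of strand is not stated. The deposited values are scores in the sense of this work: the authors divided the read counts of each library by a DESeq2 size factor and rounded them (normalized read counts). The factors, recovered from the pattern of whole numbers, ran from 0.537 to 1.53 and gave the approximate reads quoted.

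As raw counts were not used here, limma 3.58.1 was fitted in R 4.3.3 to log2(value + 1) of all 6 libraries, with a prior variance that follows the mean, no block and two-sided tests adjusted by Benjamini-Hochberg over 15915 genes with a mean of at least 5. The fit had 3 residual degrees of freedom per gene before moderation. Fold changes are on this log2(value + 1) scale and understate those of low genes. Samples were grouped by their labels, which number 2 replicates per group. The study calls the replicates biological, and nothing shows that same-numbered samples share an animal or a day. Exon lengths, positions and overlaps came from GENCODE release M21 of GRCm38, which held 98.5% of the gene identifiers, and promoters from RefSeq (GRCm38.p6).

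The 10 genes, the lists and the tests were chosen with earlier results of these data known. Named were all 10 genes, up to 3 called genes per list and comparison by size of the log2 fold change, the superoxide and catalase list, Mtf1, Sqstm1 and the 5 nearest profiles to the metallothioneins. Other genes were named after their values were seen: Mafg, Bach1, Cul3, Nfe2l1, Slc7a11, Fth1, Slc30a1 and Mt3, besides Sirt6, Xist, Ddx3y and the marker genes. Alternatives were another pseudocount, minimum mean, scaling, prior variance, block or set of libraries.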

Additional observations from a re-analysis of the deposited data

How the results depend on the processing

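Leaving out each library in turn moved the number of the 10 genes called lower in mdx from 6 to between 3 and 6, the number called higher in the Sirt6mKO/mdx-labelled libraries against mdx from 2 to between 1 and 3, and against control the number called higher to between 0 and 1 and lower to between 0 and 1. Where this left a group with 1 library, that library was taken to vary like the others. Without a minimum mean the counts were 2 lower in mdx, 1 higher against mdx and 0 lower against control, since more genes were tested and the shared variance changed. One prior variance for all genes gave 1, 0 and 0, and left no gene of the 15915 called between the Sirt6mKO/mdx-labelled libraries and mdx by limma, though 3156 had an unadjusted p under 0.05. A robust prior variance gave 1 higher against mdx, with Mt2 lost. The cause was not tested for the prior variances.

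Scaling to equal totals moved the median log2 fold change of all genes to -0.59 against mdx and -0.59 against control in the Sirt6mKO/mdx-labelled libraries. It gave 4 genes lower against control, adding Nfe2l2 (-1.13), Gclc (-1.35) and Gclm (-1.30), which are -0.54, -0.76 and -0.72 relative to that shift. It gave Keap1 against control -0.48, Gclc against mdx -0.17 and Mt1 against control -0.13, which are 0.11, 0.43 and 0.46 relative to the shift, with the sign of the reported values. Calls among all genes then went from 895 higher and 405 lower to 479 and 2937 against mdx, and from 826 and 427 to 455 and 2693 against control. Without single libraries, the log2 fold change changed sign for Nfe2l2 in mdx (-0.53 to 0.12), Keap1 against control (-0.12 to 0.37), Nqo1 against mdx (-0.63 to 0.43) and Mt2 against control (-0.30 to 1.55).

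Same-numbered libraries did not pair: the correlations of their deviations were -0.13, 0.12 and 0.01. A replicate block left the counts of the 10 genes at 6 lower in mdx and 1 lower against control, gave 3 higher against mdx by adding Hmox1 (adjusted p 0.0491), and changed the calls among all genes to 1168 higher and 1247 lower in mdx. With the control numbers crossed, an alternative chosen after seeing the data, these were 1155 and 1243. For the 40 called values of the 24 list genes that the naming rule chose (the other list genes were not followed singly), 349 of the recomputed values kept their direction and call under alternatives that keep all libraries and 86 lost the call, against 141 and 99 when a library was left out. Hmox1 and Nqo1 rest on few reads, which limits both.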
